A study of Mus musculus with 15 samples.

Results

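The S100 genes encode small calcium-binding proteins, and 8 of them were followed here across antigen-presenting cells of the mouse small intestine: S100a1, S100a4, S100a6, S100a8, S100a9, S100a10, S100a11 and S100a13. They were taken as a list of family members, each read from the 1 probeset that matched only that gene or, for S100a11, from the brighter of its 2 probesets, and they make up 8 of the 19938 genes measured. The list was chosen with earlier results of these data known. RNA came from 5 populations sorted from the small intestinal lamina propria (LP) of WT mice in the steady state, with 3 arrays for each. The WT mice of the study were young adults of both sexes on a C57BL/6 background, and no population carried a transgene, deletion or treatment. There were 4 dendritic cell (DC) subsets, all without the macrophage receptor CD64, of which 2 had CD103 (CD103+CD11b+ and CD103+CD11b-) while the other 2 lacked it (CD103-CD11b+ and CD103-CD11b-), and 1 population of CD64+ macrophages (mϕ), which the study's methods give as CD45+Ly6C-MHCII+CD64+CD11b+. The comparisons ask how the S100 genes divide these populations from each other. The number of mice behind an array is not stated, so the p-values measure the spread between these samples.

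S100 proteins fold around paired calcium-binding loops called EF hands, mostly act as dimers, and bind a partner protein when calcium rises. Inside cells they act on the cytoskeleton, membranes and annexins, and several are also released and bind receptors such as RAGE and TLR4. In myeloid cells the best known pair is S100a8 with S100a9, which together form calprotectin, an abundant protein of neutrophils and inflammatory monocytes that is used as a stool marker of gut inflammation. Most of the family lies in 1 cluster. In the RefSeq annotation of chromosome 3, S100a1, S100a13, S100a14, S100a16, S100a3, S100a2, S100a4, S100a5, S100a6, S100a7a, S100a8 and S100a9 follow each other with 0 other protein-coding genes between them, and S100a11 and S100a10 lie next to each other further along.

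Of the 8 genes, 4 passed in at least 1 of the 10 pairwise comparisons, as did 11% of all genes, and 4 passed in none. Passing means an adjusted p under 0.01 over all 19938 genes, by limma with Benjamini-Hochberg adjustment, and a log2 difference over 1. S100a4 and S100a6 were high in both CD103- DC subsets. S100a10 was low both in mϕ and CD103+CD11b- DCs, and S100a11 was low in mϕ. S100a1 and S100a13 passed in no comparison, nor did S100a8 and S100a9, whose signals were dim on nearly every array. In total 22 of 80 differences passed. A *t*-test on each pair of populations, with the same thresholds, kept 3 of the 22. This *t*-test kept 0 of 6 for S100a4 (adjusted p = 0.011 to 0.097) and 1 of 6 for S100a6 (0.0072 to 0.18). It kept 0 of 6 for S100a10 (0.026 to 0.16) and 2 of 4 for S100a11 (0.0047 to 0.015). The study's methods name a *t*-test for comparisons of groups in general, and name no test for the arrays.

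The bases before the annotated start of S100a4 and S100a6 are shown because these nearby genes, with only S100a5 between them, were both high in the CD103- DC subsets, and those of S100a11 because it divided mϕ from all DCs instead. They are 250 bases each from RefSeq, build GRCm38.p6, all on the plus strand, at chr3:90603520-90603769 for S100a4, chr3:90612644-90612893 for S100a6 and chr3:93520246-93520495 for S100a11. Capitals mark matches to 5 motifs.
S100a4: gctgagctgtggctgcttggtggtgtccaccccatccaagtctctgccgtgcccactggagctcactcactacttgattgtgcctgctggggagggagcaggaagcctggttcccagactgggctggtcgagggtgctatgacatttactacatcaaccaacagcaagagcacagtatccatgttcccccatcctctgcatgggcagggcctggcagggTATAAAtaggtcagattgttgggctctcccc
S100a6: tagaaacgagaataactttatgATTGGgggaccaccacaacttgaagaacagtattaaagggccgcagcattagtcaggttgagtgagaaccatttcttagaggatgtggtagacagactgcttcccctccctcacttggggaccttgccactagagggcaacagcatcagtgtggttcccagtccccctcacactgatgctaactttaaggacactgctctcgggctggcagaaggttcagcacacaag
S100a11: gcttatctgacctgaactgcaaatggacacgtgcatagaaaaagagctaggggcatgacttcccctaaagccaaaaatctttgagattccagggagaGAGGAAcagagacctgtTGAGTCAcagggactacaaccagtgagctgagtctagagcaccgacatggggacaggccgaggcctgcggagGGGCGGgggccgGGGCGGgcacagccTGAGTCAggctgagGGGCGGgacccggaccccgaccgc

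The motifs searched, on both strands, were the TATA box (TATAAA), an AP-1 site (TGANTCA), the Sp1 GC box (GGGCGG), a core bound by the myeloid factor PU.1 (GAGGAA) and the CCAAT box (CCAAT). No matches overlapped. The TATA box began 31 bases before the start of S100a4 and was found in 12.4% of the 32851 windows of the table. The window of S100a6 held only a CCAAT box, on the other strand and 228 bases before the start, and 33.8% of windows held one. S100a4 and S100a6 thus shared none of the 5 motifs in these windows. In the window of S100a11 AP-1 sites began 136 and 38 bases before the start, where 6.7% of windows held any, with 3 GC boxes (32.7% of windows) and 1 PU.1 core (23.3%). Of the 7 members with a window in the table, S100a8 also held a TATA box and 2 PU.1 cores, S100a9 a GC box, and S100a1 and S100a13 no match. The windows of S100a1 and S100a13 lie on opposite strands and overlap.

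The RNA of each sort protein was higher in the populations sorted as positive for it than in the others. *Itgae*, which encodes CD103, had mean log2 signals of 10.38 and 10.90 in CD103+CD11b+ and CD103+CD11b- DCs, and 7.84, 8.76 and 5.09 in CD103-CD11b+ DCs, CD103-CD11b- DCs and mϕ. *Itgam*, which encodes CD11b, was at 9.56, 9.53 and 10.24 in the 3 CD11b+ populations, at 4.93 in CD103+CD11b- DCs and at 6.64 in CD103-CD11b- DCs. *Fcgr1*, for CD64, was at 8.92 in mϕ and at 3.83 to 4.80 in DCs. In CD103-CD11b- DCs *Itgam* was 3.27-fold above CD103+CD11b- DCs (adjusted p = 1.5e-06 by limma). Their mean of 8 genes of conventional DC subset 1 was 8.20 to 8.65. It was 6.44 to 6.53 in CD103-CD11b+ and 10.13 to 10.37 in CD103+CD11b- DCs. The paper describes this small CD103-CD11b- subset as heterogeneous in phenotype and possibly derived from isolated lymphoid follicles, and left it unexplored. Replicate arrays correlated at 0.978 to 0.995 across genes, and replicate 2 of the mϕ stood furthest apart, with a mean level of 22 epithelial genes of 8.33 against 6.69 and 6.65 on the other mϕ arrays. The mean of 12 pancreatic enzyme genes varied between replicates, with 7.07 to 8.71 on the richest array of each population, and replicate 3 of CD103+CD11b+ DCs was also raised (6.94, beside 7.78 on replicate 2 and 5.47 on replicate 1). In sorted samples of this kind, fewer cells of a type and less RNA per cell cannot be told apart.

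**Figure D1:**
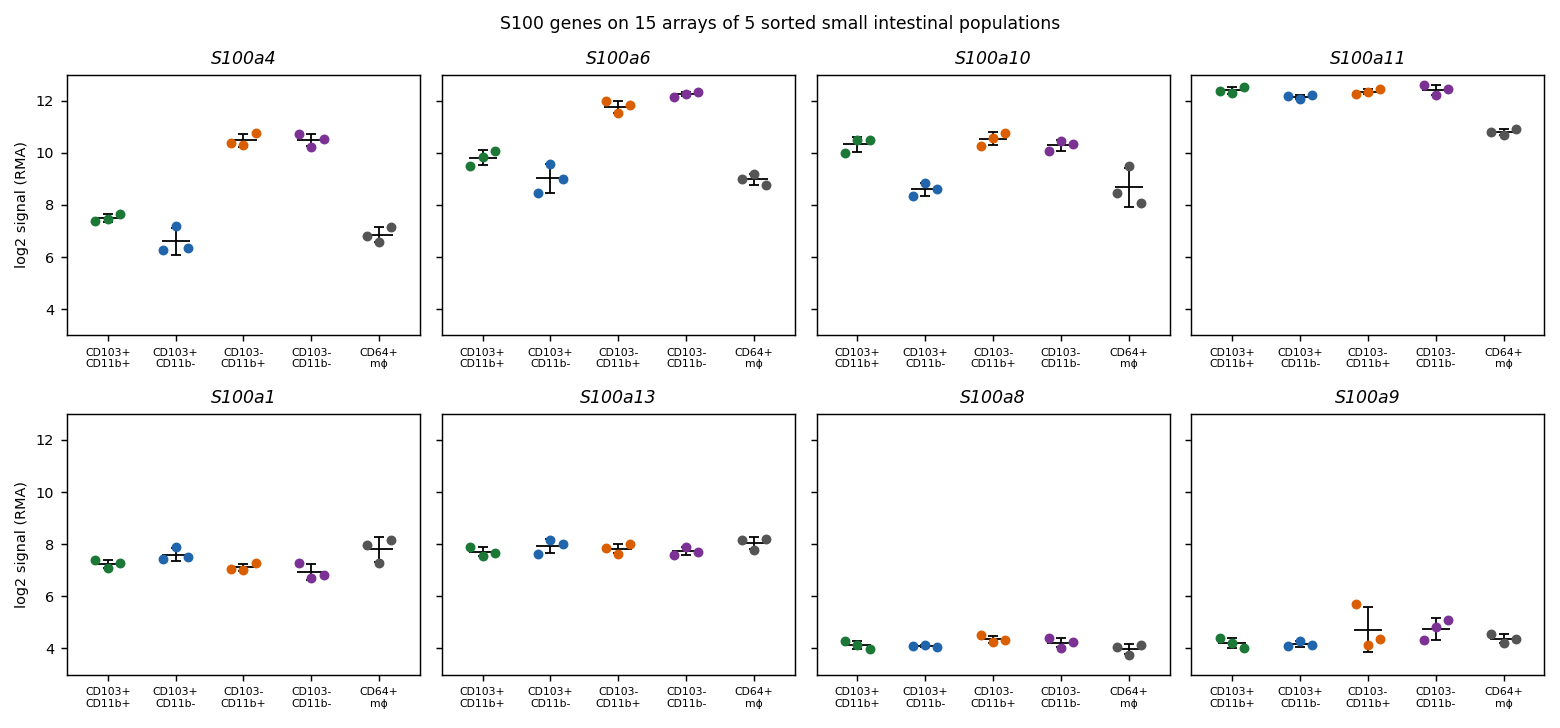
Log2 signal (y axis) of the 8 S100 genes in the 5 sorted populations (x axis), with 1 point per array, the mean as a horizontal line and the SD as a bar (n = 3). S100a4 and S100a6 are high in both CD103- DC subsets, S100a10 is low in CD103+CD11b- DCs and mϕ, S100a11 is low in mϕ, and the other 4 genes stay within 1 log2 unit between population means.

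S100a4, also known as metastasin or fibroblast-specific protein, binds non-muscle myosin and is linked to cell motility. Its log2 signals were 10.36, 10.29 and 10.76 on the 3 arrays of CD103-CD11b+ DCs and 10.71, 10.23 and 10.54 on those of CD103-CD11b- DCs. In CD103+CD11b+ DCs they were 7.37, 7.45 and 7.66, in CD103+CD11b- DCs 6.28, 7.19 and 6.34, and in mϕ 6.80, 6.59 and 7.16. All 6 arrays of CD103- DCs thus lay above all 9 others, with a gap of over 2 log2 units. CD103-CD11b+ DCs exceeded CD103+CD11b- DCs 14.6-fold (log2 difference 3.86, SE 0.22, adjusted p = 1.6e-08), CD103+CD11b+ DCs 7.86-fold (adjusted p = 6.2e-06) and mϕ 12.3-fold (adjusted p = 2.0e-08). CD103-CD11b- DCs exceeded the same 3 populations 14.8-, 7.98- and 12.5-fold. The 2 CD103- subsets, at 10.49 ± 0.24 for CD103-CD11b- and 10.47 ± 0.25 for CD103-CD11b+ DCs (SD, n = 3), differed by 0.02 (95% interval -0.45 to 0.50).

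Lower in the order of *S100a4*, CD103+CD11b+ DCs followed at 7.495 ± 0.15, mϕ at 6.85 ± 0.29 and CD103+CD11b- DCs at 6.61 ± 0.51. The arrays of CD103+CD11b+ DCs did not overlap with either of the others, but the log2 difference of 0.89 from CD103+CD11b- DCs (adjusted p = 0.016) and that of -0.65 for mϕ minus CD103+CD11b+ DCs (adjusted p = 0.058) missed the thresholds. Replicate 2 of CD103+CD11b- DCs, at 7.19, was also the array with the highest mean of pancreatic genes (8.71, against 5.02 and 5.37 on the other arrays of that subset). Without it the difference between the CD103+ subsets was 1.18 (adjusted p = 0.00077) and passed. In CD103-CD11b+ DCs the array richest in pancreatic genes was also highest for *S100a4* (10.76). It lay between the others in CD103+CD11b+ DCs (7.45) and was lowest in CD103-CD11b- DCs (10.23) and mϕ (6.59). The part of pancreatic RNA was not tested. The mϕ and CD103+CD11b- DCs overlapped.

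S100a6, or calcyclin, binds annexins and the ubiquitin-pathway protein CacyBP. Its arrays were at 12.15, 12.27 and 12.32 in CD103-CD11b- DCs and at 11.97, 11.51 and 11.82 in CD103-CD11b+ DCs. CD103+CD11b+ DCs had 9.50, 9.84 and 10.07, CD103+CD11b- DCs 8.47, 9.59 and 9.0, and mϕ 9.0, 9.18 and 8.77. As for *S100a4*, the 6 arrays of CD103- DCs lay above all others. CD103-CD11b- DCs were 9.38-fold above CD103+CD11b- DCs (log2 difference 3.23, SE 0.23, adjusted p = 2.4e-07), 5.44-fold above CD103+CD11b+ DCs (adjusted p = 7.1e-06) and 9.59-fold above mϕ (adjusted p = 5.3e-08). CD103-CD11b+ DCs exceeded CD103+CD11b- DCs by a log2 difference of 2.75 (adjusted p = 7.2e-07), and were 3.90-fold above CD103+CD11b+ DCs (adjusted p = 0.00025) and 6.88-fold above mϕ (adjusted p = 3.6e-07).

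Between the CD103- subsets *S100a6* had non-overlapping arrays, with means of 12.25 ± 0.09 and 11.77 ± 0.23 (SD, n = 3). The log2 difference of 0.48 (95% interval 0.00 to 0.96) did not pass (adjusted p = 0.40). CD103+CD11b+ DCs at 9.80 ± 0.29 overlapped with CD103+CD11b- DCs at 9.02 ± 0.56, and their difference of 0.79 did not pass (adjusted p = 0.035). It was 1.07 and passed (adjusted p = 0.0024) without replicate 2 of CD103+CD11b- DCs, the array that also had the highest *S100a4* of its subset. CD103+CD11b- DCs and mϕ, at 8.98 ± 0.21, differed by less than the spread between arrays.

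Values of other cell types stand beside this pattern. The mean of 13 mϕ genes was 7.11 to 7.52 in CD103-CD11b+ DCs, 5.82 to 7.03 in CD103-CD11b- DCs, 5.98 to 6.30 in CD103+CD11b+ DCs and 5.38 to 5.54 in CD103+CD11b- DCs, against 10.43 to 10.64 in mϕ. In mϕ themselves, *S100a4* and *S100a6* were at 6.85 and 8.98, below both CD103- DC subsets. The mean of 9 monocyte genes was 6.06 to 6.38 in CD103-CD11b+ DCs, 5.90 to 6.13 in CD103-CD11b- DCs, 5.55 to 5.80 in the CD103+ subsets and 6.80 to 6.95 in mϕ. Of these genes *Ccr2*, the receptor that brings monocytes into tissue, was at 7.21 to 8.37 in CD103- DCs. It was at 4.36 to 4.90 in CD103+CD11b+ DCs, 6.26 to 6.75 in CD103+CD11b- DCs and, highest, 9.251 to 9.485 in mϕ. *Vcan* and *Chil3* were no higher than 3.87 on any array. Of the 9 monocyte genes, 4 had higher means in both CD103- subsets than in both CD103+ subsets, 1 had lower means (*Treml4*, 8.89 and 7.66 against 9.40 and 9.63) and 4 did neither. The mean of 11 plasma cell and plasmacytoid genes was 8.63 to 9.02 in CD103-CD11b- DCs, 7.59 to 8.27 in CD103-CD11b+, 7.26 to 7.59 in CD103+CD11b+ and 7.13 to 7.28 in CD103+CD11b- DCs, beside 7.49 to 8.45 in mϕ. The part of these genes in the pattern was not tested. The mean of 12 fibroblast genes was 5.30 to 5.88 in CD103- DCs and 5.40 to 6.24 in CD103+ DCs, so the subsets overlapped.

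**Figure D2:**
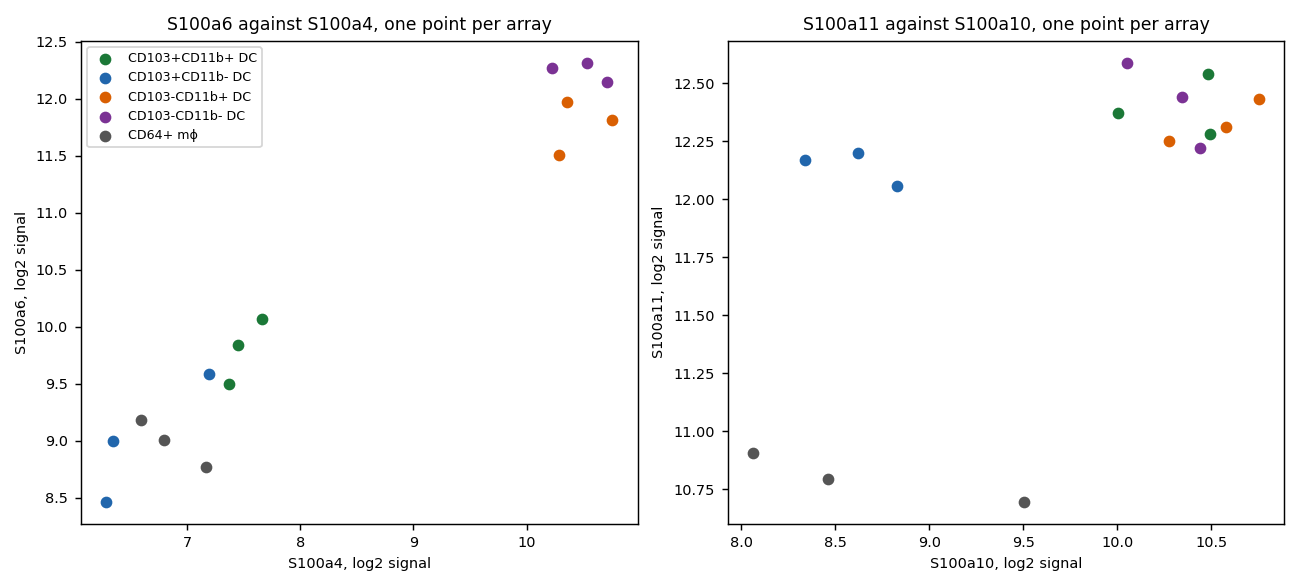
Log2 signal of S100a6 against S100a4 (left) and of S100a11 against S100a10 (right), with 1 point per array coloured by population. On the left the 6 arrays of CD103- DCs lie apart from the other 9, and on the right mϕ lie low on both axes and CD103+CD11b- DCs low for S100a10 alone.

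S100a10, or p11, does not bind calcium and joins annexin A2 in a complex at the plasma membrane that also holds plasminogen. Its log2 signals were 10.004, 10.49 and 10.48 in CD103+CD11b+ DCs, with 10.27, 10.58 and 10.76 for the CD103-CD11b+ arrays and 10.05, 10.44 and 10.34 for the CD103-CD11b- arrays. CD103+CD11b- DCs had 8.34, 8.83 and 8.62, and mϕ 8.46, 9.50 and 8.06. The first 3 subsets overlapped with each other, and all their arrays lay above those of the last 2 populations. CD103+CD11b- DCs were lower than CD103+CD11b+ DCs 3.32-fold (log2 difference 1.73, SE 0.28, adjusted p = 0.00056), than CD103-CD11b+ DCs 3.85-fold (adjusted p = 0.00020) and than CD103-CD11b- DCs 3.22-fold (adjusted p = 0.00087). Unlike *S100a4* and *S100a6*, this gene had almost equal means in CD103+CD11b+ and CD103-CD11b- DCs, 10.33 ± 0.28 and 10.28 ± 0.20 (difference -0.05, 95% interval -0.65 to 0.55).

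In *S100a10*, mϕ were 3.14-fold below CD103+CD11b+, 3.64-fold below CD103-CD11b+ and 3.04-fold below CD103-CD11b- DCs (adjusted p = 0.00048, 0.00019 and 0.00057). Their 3 arrays had an SD of 0.75, the widest of any member in any population but S100a9 in CD103-CD11b+ DCs, and the high value of 9.50 came from the array with the high epithelial genes. Without it the log2 differences were -2.07, -2.28 and -2.02, so they were larger in size. That array was also the mϕ array richest in pancreatic genes (7.07, against 4.79 and 4.87). The part of epithelial or pancreatic RNA in its *S100a10* value was not tested. From CD103+CD11b- DCs, at 8.59 ± 0.25, the mϕ at 8.67 ± 0.75 differed by 0.08 (95% interval -0.52 to 0.68), and without that array by -0.33 (adjusted p = 0.26).

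S100a11, or calgizzarin, binds annexins A1 and A2 and takes part in membrane repair. CD103+CD11b+ DCs had log2 signals of 12.37, 12.28 and 12.54, and CD103+CD11b- DCs had 12.17, 12.06 and 12.20. The arrays read 12.25, 12.31 and 12.43 for CD103-CD11b+ DCs, then 12.59, 12.22 and 12.44 for CD103-CD11b- DCs. In mϕ it was at 10.79, 10.70 and 10.91, below every DC array by more than 1 log2 unit. The mϕ were 2.54-fold below CD103+CD11b- DCs (log2 difference -1.34, SE 0.10, adjusted p = 1.3e-07), 2.90-fold below CD103-CD11b+ DCs (adjusted p = 5.9e-08), 3.03-fold below CD103+CD11b+ DCs (adjusted p = 2.7e-08) and 3.07-fold below CD103-CD11b- DCs (adjusted p = 2.7e-08). Among DC subsets the means ran from 12.14 ± 0.07 to 12.42 ± 0.18 and no difference passed, although the arrays of CD103+CD11b- DCs lay below all others. The second probeset of the gene gave 10.47 to 10.70 in mϕ and 11.86 to 12.38 in DCs, the same division between mϕ and DCs. On that probeset the CD103+CD11b- arrays, at up to 12.03, overlapped with CD103-CD11b+ (from 12.02) and CD103-CD11b- DCs (from 11.98). A gene with 2 such probesets may share signal with a near-identical copy, and this was not tested.

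**Figure D3:**
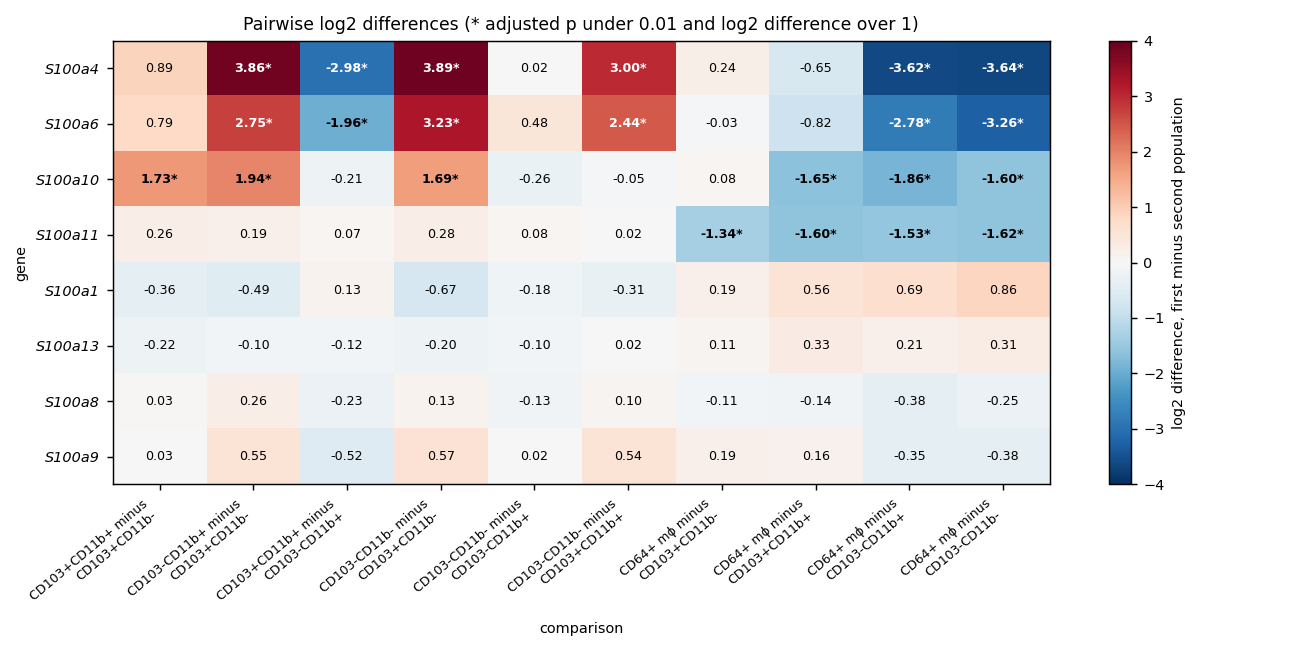
Log2 difference (colour and number, first minus second population) of each S100 gene (rows) in the 10 pairwise comparisons (columns), where an asterisk marks a difference that passed. The 22 passing differences lie in the rows of S100a4, S100a6, S100a10 and S100a11, and none in the column of CD103-CD11b- minus CD103-CD11b+ DCs.

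S100a1, known for its action on calcium pumps and channels in muscle, had population means within a span of 0.86 log2 units. The means were 7.80 ± 0.46 in mϕ, 7.60 ± 0.25 for CD103+CD11b-, 7.24 ± 0.15 for CD103+CD11b+, 7.11 ± 0.14 for CD103-CD11b+ and 6.93 ± 0.30 for CD103-CD11b- DCs (SD, n = 3), and neighbours in this order overlapped except for the 2 CD103+ subsets, whose arrays lay just apart (7.38 at most against 7.42 at least). The arrays of the highest and lowest populations were 7.97, 7.27 and 8.15 in mϕ and 7.27, 6.71 and 6.82 in CD103-CD11b- DCs. These populations lay barely apart, with 7.2724 at least in mϕ against 7.2715 at most. Their difference of 0.86 had an adjusted p of 0.0065 but stayed under 1. It came over the threshold, at 1.12, without replicate 2 of the mϕ, at 1.03 without replicate 1 of CD103-CD11b- DCs, at 1.02 with array weights (adjusted p = 0.00066) and at 1.01 without the 5 arrays richest in pancreatic genes (adjusted p = 0.00092). For *S100a1*, 0 of the 10 comparisons passed by limma, where 5 had an unadjusted p below 0.05. By the *t*-test on the same values 0 passed, where 2 did.

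S100a13, which helps export FGF1 and interleukin-1α from cells without a signal peptide, was the most even member, at 7.56 to 8.18 on the 15 arrays. Its means were 8.04 in mϕ, 7.93 for CD103+CD11b-, 7.83 for CD103-CD11b+, 7.73 for CD103-CD11b- and 7.71 for CD103+CD11b+ DCs, and no pair differed by more than 0.33. Neither limma nor the *t*-test gave it an unadjusted p below 0.05.

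S100a8 and S100a9, the calprotectin chains, had low signals. *S100a8* was at 3.75 to 4.51 on all 15 arrays, below the array medians of 4.74 to 4.86, with means from 3.98 ± 0.20 in mϕ to 4.36 ± 0.14 in CD103-CD11b+ DCs. The difference between these was -0.38 (adjusted p = 0.047). *S100a9* was at 4.03 to 5.69. Its arrays in CD103-CD11b+ DCs were 5.69, 4.13 and 4.36, in CD103-CD11b- DCs 4.31, 4.83 and 5.11, and in mϕ 4.55, 4.21 and 4.35, while the CD103+ subsets stayed between 4.03 and 4.399. Replicate 1 of CD103-CD11b+ DCs alone gave the highest value, and that array also had the highest *Retnlg*, a neutrophil gene, at 7.14 against 4.32 to 5.14 on the other arrays. The neutrophil genes did not all move this way. Within its subset that array was highest for *Csf3r* (6.83), between the others for *Mmp9* (5.40) and lowest for *Ly6g* (3.04). The CD103-CD11b- arrays with *S100a9* at 4.83 and 5.11 had *Retnlg* at 4.32 and 4.62. The part of neutrophil RNA was not tested. No comparison passed for either gene by limma (unadjusted p below 0.05 in 2 of 10 for *S100a8* and in 0 for *S100a9*) or the *t*-test (1 and 0). The files carry no detection calls, so these values are low signals and do not show that the RNA was absent.

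Most neutrophil markers were dim as well. The mean of 14 neutrophil genes was 3.98 to 4.90 over all arrays, and *Ly6g*, which defines mouse neutrophils, was at 2.83 to 3.42. The exceptions in the list were *Mmp9*, at 10.44 in mϕ and 4.02 to 5.43 in DC subsets, and *Csf3r*, at 8.20 in mϕ and 4.49 to 6.36 in DC subsets.

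Set by comparison, the passing members were read against the share of all genes that passed the same way. As the members were chosen with earlier results of these data known, the shares are a description and not a test. CD103-CD11b+ minus CD103+CD11b- DCs had 3 of 8 higher and 0 lower, where 1.91% of all genes were higher and 1.26% lower, and the median member difference was 0.41 against 0.04 over all genes. CD103-CD11b- minus CD103+CD11b- DCs had 3 higher and 0 lower (1.61% and 1.05% of all genes), with a median of 0.42 against 0.02. These were *S100a4*, *S100a6* and *S100a10* in both comparisons, which share the CD103+CD11b- arrays. CD103+CD11b+ minus CD103+CD11b- DCs had 1 higher, *S100a10*, and 0 lower (1.89% and 1.32%), with a median of 0.14 against 0.03.

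The comparison of the CD11b+ subsets was sparse over all genes, yet it held *S100a4* and *S100a6*. CD103+CD11b+ minus CD103-CD11b+ DCs had 0 of 8 higher and 2 lower, where 0.201% of all genes were higher and 0.261% lower, and CD103-CD11b- minus CD103+CD11b+ DCs had 2 higher and 0 lower (0.908% and 1.02%). The median member differences were -0.22 and 0.06, against -0.01 in both over all genes. CD103-CD11b- minus CD103-CD11b+ DCs had 0 of 8 in either direction by limma (0.356% higher and 0.451% lower over all genes), no member having an unadjusted p below 0.05, and 0 passed by the *t*-test, where 1 had.

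Against mϕ, S100 genes passed downwards. The mϕ minus CD103+CD11b- DCs gave 0 higher and 1 lower (4.04% and 2.99% of all genes), minus CD103+CD11b+ DCs 0 and 2 (3.34% and 2.34%), minus CD103-CD11b+ DCs 0 and 4 (3.02% and 2.16%) and minus CD103-CD11b- DCs 0 and 4 (3.73% and 2.57%). The median member differences were 0.10, -0.40, -0.96 and -0.99, where the medians over all genes lay between -0.02 and 0.03. The 4 comparisons share the mϕ arrays.

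Whether the effect of CD103 depended on CD11b was asked by an interaction, the difference between CD103+CD11b+ and CD103+CD11b- DCs minus that between CD103-CD11b+ and CD103-CD11b- DCs. It was 1.48 for *S100a10* (SE 0.39, adjusted p = 0.047), 1.27 for *S100a6* (SE 0.32, adjusted p = 0.034) and 0.91 for *S100a4* (SE 0.32, adjusted p = 0.15). None of the 8 members passed by limma (1.08% of all genes passed upwards and 0.893% downwards), where 4 had an unadjusted p below 0.05. *S100a6* passed at 1.55 (adjusted p = 0.0036) without replicate 2 of CD103+CD11b- DCs, and *S100a10* at 1.48 (adjusted p = 0.0022) without replicate 2 of the mϕ, an array that enters only through the shared spread.

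The other S100 genes were dim. Of 9 measured, S100a2, S100a3, S100a5, S100a7a, S100a14, S100a16, S100b and S100z had population means between 3.73 and 5.33. *S100a5*, which lies between *S100a4* and *S100a6*, was at 4.87, 4.96 and 4.62 in CD103-CD11b+ DCs and 4.42, 4.11 and 4.24 in CD103+CD11b- DCs, a log2 difference of 0.56 (adjusted p = 0.0025) that stayed under 1. *S100g*, the calbindin of intestinal epithelium, was the only 1 of the 9 to pass in a pairwise comparison, where 11% of all genes passed in at least 1. It was at 7.20, 7.13 and 6.56 in mϕ against 6.08, 5.84 and 5.84 in CD103-CD11b+ DCs, a difference of 1.04 (adjusted p = 0.0065). In that comparison 3.02% of all genes were higher. The epithelial list had means of 6.69, 8.33 and 6.65 on the same mϕ arrays and 6.76 to 7.0008 in CD103-CD11b+ DCs. Of that list, *Fabp1* and *Fabp2*, for fatty acid carriers of enterocytes, were also high in mϕ, with means of 9.87 and 10.41 against 6.85 to 7.90 and 7.55 to 8.81 in DCs, and both were highest on mϕ replicate 1, as was *S100g*. Other genes of the list were highest on mϕ replicate 2, among them *Krt19* (5.67, 8.51 and 5.34) and *Muc2* (5.15, 7.82 and 5.08). Their means in CD103-CD11b+ DCs were 6.65 and 6.28, above mϕ replicates 1 and 3. The part of epithelial RNA in the *S100g* difference was not tested.

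Partners and receptors of S100 proteins were read from a list of 27 measured genes, of which 12 passed in at least 1 comparison and 15 in none, where 11% of all genes passed in at least 1. Annexin A2 joins S100a10, and *Anxa2* was at 7.04, 7.45 and 6.67 in mϕ, below every DC array. Its means in DCs were 8.45 ± 0.19 in CD103+CD11b+, 8.90 ± 0.24 in CD103+CD11b-, 9.21 ± 0.19 in CD103-CD11b+ and, highest, 9.41 ± 0.22 in CD103-CD11b- DCs, while mϕ were lower by log2 differences of -1.40 to -2.35 (adjusted p = 5.3e-05 or less). In CD103+CD11b- DCs, where *S100a10* was low, the mean of *Anxa2* lay above that of CD103+CD11b+ DCs and below those of CD103-CD11b+ and CD103-CD11b- DCs by 0.31 and 0.51, and none of these differences passed (adjusted p = 0.18, 0.37 and 0.12).

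*Anxa1*, for a partner of S100a11, followed the same division between mϕ and DCs more widely. It was at 6.0, 6.34 and 6.09 in mϕ, and its DC means were 9.998 ± 0.28 in CD103+CD11b-, 9.34 ± 0.16 in CD103+CD11b+, 9.05 ± 0.09 in CD103-CD11b+ and, lowest, 8.93 ± 0.41 in CD103-CD11b- DCs. The mϕ differed by -2.79 to -3.85 from DCs. *Anxa6*, for another annexin, was lower in mϕ than in both CD103+ subsets (-1.09 and -1.29). *Alcam*, an adhesion molecule, was at 8.33 to 9.02 in DC means and 6.91 in mϕ, lower there in all 4 comparisons.

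**Figure D4:**
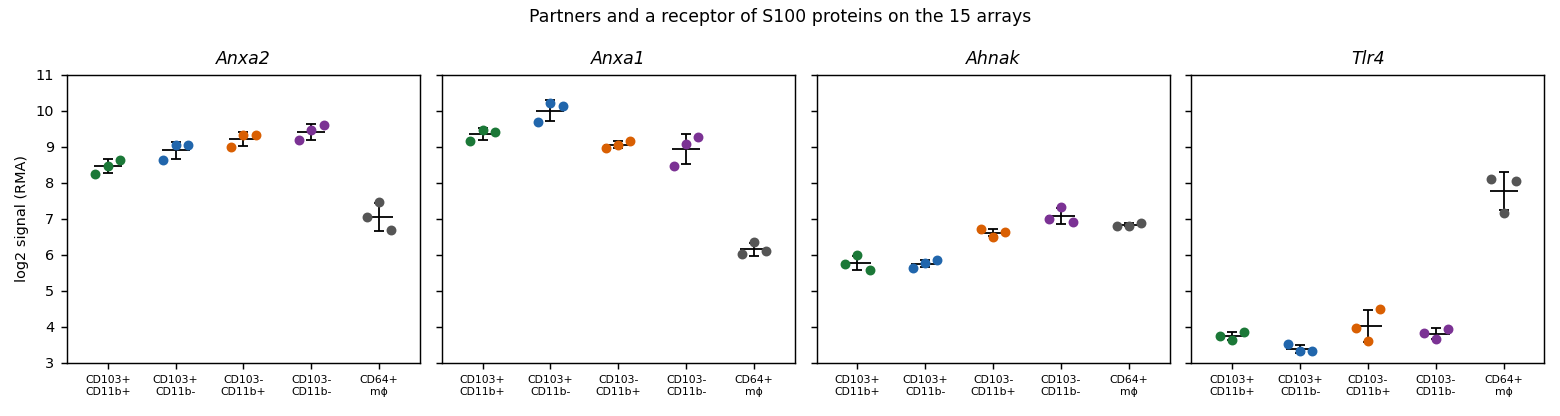
Log2 signal (y axis) of Anxa2, Anxa1, Ahnak and Tlr4 in the 5 populations (x axis), with 1 point per array, the mean as a horizontal line and the SD as a bar (n = 3). Anxa2 and Anxa1 are low in mϕ, Tlr4 is high in mϕ alone, and the 6 arrays of CD103+ DCs lie below all others for Ahnak.

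*Ahnak* encodes a large scaffold protein that the complex of S100a10 and annexin A2 binds. It was at 6.99, 7.33 and 6.90 in CD103-CD11b- DCs and 6.70, 6.499 and 6.62 in CD103-CD11b+ DCs, and at 5.58 to 5.99 on the arrays of CD103+ DCs. CD103-CD11b- DCs passed over CD103+CD11b- (1.32, adjusted p = 3.7e-06) and CD103+CD11b+ DCs (1.31, adjusted p = 8.0e-06). The mϕ, where *S100a10* was low, had 6.79 to 6.87 and passed over the same subsets (1.07, adjusted p = 7.8e-06, and 1.06, adjusted p = 1.3e-05). *Capn2*, a calcium-dependent protease, was higher in CD103-CD11b- than in CD103+CD11b+ DCs by 1.43 (adjusted p = 1.5e-06). The genes of the partners named for S100a4 and S100a6, *Myh9* (9.06 to 9.69) and *Cacybp* (8.32 to 8.71 in population means), passed in no comparison.

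Among receptors, *Tlr4*, through which extracellular S100a8 and S100a9 act, was at 8.11, 7.16 and 8.05 in mϕ and 3.31 to 4.48 in DCs, with log2 differences of 3.76 to 4.39 (adjusted p = 1.8e-08 or less). *Ager*, which encodes RAGE, had means of 5.77 to 6.19 and passed in no comparison. The calprotectin-related oxidase gene *Cybb* was at 5.91 ± 0.58 in CD103+CD11b- DCs and 9.68 to 10.95 in the other population means, and *Tgm2*, a transglutaminase that cross-links S100 proteins, was lowest in the same subset, at 6.98 ± 0.31 against 8.76 to 10.22. *Ctsd*, for cathepsin D, was at 10.17 in mϕ and 6.68 to 8.43 in DCs. *Il1a*, whose product is released with S100a13, was at 8.57 and 8.16 in CD103+CD11b+ and CD103-CD11b+ DCs, 7.34 in mϕ, 5.93 in CD103+CD11b- and only 5.33 in CD103-CD11b- DCs, while the means of *S100a13* spanned 0.33. *Ppfibp1*, for liprin-β1, a partner of S100a4, was lower in mϕ than in CD103+CD11b- DCs by a difference of -1.27.

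By comparison, the partners, a list also chosen with earlier results of these data known, divided in both directions. The mϕ minus CD103+CD11b- DCs gave 6 of 27 higher and 5 lower (4.04% and 2.99% of all genes), minus CD103+CD11b+ DCs 4 and 4 (3.34% and 2.34%), minus CD103-CD11b+ DCs 2 and 3 (3.02% and 2.16%) and minus CD103-CD11b- DCs 4 and 3 (3.73% and 2.57%). Between DC subsets 3 were higher and 0 lower in CD103+CD11b+ minus CD103+CD11b- DCs (1.89% and 1.32% of all genes), 4 and 0 in CD103-CD11b+ minus CD103+CD11b- (1.91% and 1.26%) and 4 and 1 in CD103-CD11b- minus CD103+CD11b- DCs (1.61% and 1.05%). There were 0 and 2 in CD103-CD11b- minus CD103-CD11b+ (0.356% and 0.451%) and 3 and 2 in CD103-CD11b- minus CD103+CD11b+ DCs (0.908% and 1.02%). CD103+CD11b+ minus CD103-CD11b+ DCs had 0 in either direction by limma (0.201% and 0.261%), where 8 had an unadjusted p below 0.05, and 0 by the *t*-test, where 9 had. The median partner difference was no further than 0.08 from 0 in these 10 comparisons.

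The genes most like each passing member over the 15 arrays, by Pearson's r among 740 genes whose population means spanned more than 2 log2 units, are given as a description. For *S100a4* and *S100a6* they were the same 3, *Il22ra2*, the soluble inhibitor of interleukin-22 (r = 0.92 and 0.96), *Spib*, a transcription factor (0.90 and 0.92), and *Ltb*, for lymphotoxin-β (0.87 and 0.91). *Il22ra2* had means of 10.45 in CD103-CD11b- and next 9.18 in CD103-CD11b+ DCs, then 6.81, 5.96 and 4.33 in CD103+CD11b+ DCs, CD103+CD11b- DCs and mϕ. For *S100a10* they were *Mcemp1* (0.96), *Gm614* (0.95) and *Slc2a6* (0.95), and for *S100a11* *Nup210* (0.99), *Slc46a3* (0.99) and *Alcam* (0.97). *Nup210* was at 6.97 in mϕ and 9.73 to 9.89 in DC means, and *Mcemp1* at 5.38 in CD103+CD11b- DCs, 5.99 in mϕ and 8.11 to 8.70 elsewhere. The arrays share populations and a common normalization, so the points are not independent.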

How the data were processed

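RNA of sorted cells was amplified and hybridized to GeneChip Mouse Gene 1.0 ST arrays, 1 sample per array, 15 in all. The authors processed the scans by Robust Multi-array Average (RMA), and the deposited values are log2 signals, already background-corrected, quantile-normalized and summarized per probeset, so any difference in total RNA between populations is removed. Raw intensities were not used here. Of 35556 probesets, 21789 matched 1 gene symbol in the platform annotation, 1621 several and 12146 none listed. Per gene the probeset with the highest mean was kept (19938 genes, 999 of them with several). The array number limits the precision.

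One limma 3.58.1 fit in R 4.3.3 covered 5 population means, 10 pairwise contrasts and the interaction, with Benjamini-Hochberg adjustment over all genes. It was tested on simulated data. The members and gene lists were chosen with earlier results of these data known. Named genes were the members, other S100 genes, partners, sort genes, up to 4 of each marker list and the 3 most alike genes per passing member. *Retnlg*, *Mmp9*, *Csf3r* and *Ly6g* stand for neutrophils. Alternatives were the mean of all probesets, cyclic loess, leaving out dim genes (no population mean above 6), a trended robust prior and array weights. Others were the replicate block, a Student's *t*-test on each pair of populations, 9 arrays of 3 DC subsets, and leaving out arrays. Figures were drawn with matplotlib 3.10.9 in Python 3.11.15.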

Additional observations from a re-analysis of the deposited data

How the results depend on the processing

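All 22 passing differences kept their call with the mean of all probesets, cyclic loess, dim genes left out, a trended robust prior, array weights, the replicate block, without each population's array of highest pancreatic signal, and without each of the 15 arrays in turn, and the 6 tested there did so in the fit on 9 arrays. The Student's *t*-test kept 3 of 22. It gave 0 passing members in CD103+CD11b+ minus CD103+CD11b-, CD103-CD11b+ minus CD103+CD11b-, CD103+CD11b+ minus CD103-CD11b+, CD103-CD11b- minus CD103+CD11b-, CD103-CD11b- minus CD103+CD11b+ DCs and mϕ minus CD103-CD11b+ DCs, and 1 each in mϕ minus CD103+CD11b+ and minus CD103-CD11b- DCs, as it estimates the spread from 2 groups of 3 arrays alone. Without the pancreatic-rich arrays 2 members passed between the CD103+ subsets and 1 in the interaction (S100a4, 1.503), and array weights gave 1 in the interaction (S100a10, 1.54). S100a1 in mϕ minus CD103-CD11b- DCs passed under both (1.01 and 1.02). Without 1 array the former count was 1 to 3, highest without replicate 2 of CD103+CD11b- DCs, and the latter 0 to 1. Differences near 0 changed sign. For mϕ minus CD103+CD11b- DCs, S100a6 was 0.13 with loess, 0.15 without the pancreatic-rich arrays and -0.31 to 0.25 without 1 array, and S100a10 was -0.12 with array weights, -0.22 without the pancreatic-rich arrays and -0.33 to 0.39 without 1 array. For CD103-CD11b- minus CD103+CD11b+ DCs, S100a11 was -0.0063 with array weights and -0.0669 to 0.12 without 1 array, and S100a10 was -0.21 to 0.066. S100a11 in CD103+CD11b+ minus CD103-CD11b+ DCs was -0.0051 to 0.12, and S100a4 between the CD103- subsets -0.0877 to 0.17. The cause was not tested. The replicate numbers are shared by the populations, and 18 of 30 same-numbered pairs had deviations correlated over 0.1. The mean correlation was 0.12 for same-numbered pairs. The mean of -0.06 for other pairs largely follows from this, as deviations were taken from the population means, and is no separate baseline. These values do not settle whether the samples were paired. The labels state no pairing, and the main fit took none. With the replicate block, the number of passing members was as before in every comparison, for instance 3 in CD103-CD11b+ minus CD103+CD11b- DCs. With 3 arrays per population and no detection calls, small differences of the dim S100a8 and S100a9 could not be resolved.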
